A study of Homo sapiens with 8 samples.

Results

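AIRE-Tet cells given both doxycycline and etoposide were compared with untreated AIRE-Tet cells by FAIRE-seq, using the 2 libraries of each group, 4 of the 8 libraries in the series. The members were all 256141 windows of the deposited count table, of 150 bp each and starting every 50 bp along hg19, and every window was used. AIRE-Tet is a HEK293-derived human line that carries the Tet-On Advanced transactivator and a doxycycline-inducible human AIRE gene. All groups were grown in tetracycline-negative serum with G418. The Control libraries came from cells given neither agent. The cells with both treatments (DoxEtop) received 1.5 µM doxycycline, which induces AIRE, and after 24 h of induction 2 µM etoposide for 24 h. The remaining libraries came from cells given doxycycline alone (Dox, n = 2) or etoposide alone (Etop, n = 2) at the same doses. All libraries came from 1 cell line, and no cells lacking the AIRE transgene but given doxycycline were compared here. An effect of the antibiotic and an effect of AIRE cannot be told apart. AIRE transcript levels and the identity of the cells were not measured by these files.

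AIRE is a transcriptional regulator best known from medullary epithelial cells of the thymus, where it drives expression of many tissue-restricted genes and so supports immune tolerance. Etoposide traps type II topoisomerases on the DNA they have cut and leaves double-strand breaks, and these enzymes are among the known partners of AIRE. In FAIRE-seq, formaldehyde-fixed chromatin is extracted with phenol and chloroform, DNA with few nucleosomes stays in the aqueous phase, and a high count in a window marks accessible chromatin. The series asks how DNA breaks and chromatin structure bear on the transcription of AIRE's targets, and the present comparison shows where accessibility differed once both treatments had been given. In a pool of cells, a change in the number of cells with an open site and a change in how open the site is in each cell cannot be told apart.

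Column totals were 8275911 and 6787276 in the Control libraries and 5305079 and 5034832 in the DoxEtop libraries, so the DoxEtop total was 68.6% of the Control total. Because windows overlap, these totals are not read depths. Every window held at least 111 counts over the 8 libraries (median 160), and the Control pair had a larger summed total than any other group. The 2 Control libraries stood further apart than the 2 DoxEtop libraries. Over chromosome bands, the median absolute log2 ratio between replicates was 0.11 in Control and 0.07 in DoxEtop. Control replicate 1 was closer to the DoxEtop libraries than Control replicate 2 was in all 20 bands named below. Levels are given as CPM, counts scaled to a common library total over non-overlapping windows, and fold changes as log2 of DoxEtop over Control.

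At the scale of chromosome bands, accessibility moved in both directions and by modest amounts. The limits of the bands were recalled from memory at a precision of 100 kb and not checked against a band file, so each band is an approximate interval. Of 707 bands with at least 20 windows, 28 rose (3.96% of bands tested) and 31 fell (4.38%) by edgeR's quasi-likelihood F test at a Benjamini-Hochberg adjusted p under 0.05. The median log2 fold change was 0.29 in the bands that rose and −0.24 in those that fell, against 0.03 over all bands. In all 59 the DoxEtop libraries did not overlap the Control libraries, which was the case for 30.1% of all bands on the higher side and 22.1% on the lower side. A fit without 1 of these libraries could therefore not reverse the direction of any of the 59. The number of calls rested on single libraries. It was 24 without Control replicate 2, 6 without DoxEtop replicate 1 and 140 without Control replicate 1, while each of the 59 bands kept its direction in all 3 of these fits.

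The bands that rose lay mainly at the ends of chromosomes. Of 39 bands tested that end a chromosome arm at the telomere, 16 rose and 1 fell, compared with 12 that rose and 30 that fell among the 668 other bands. The log2 fold change was above 0 in 36 of the 39 terminal bands and in 375 of the 668 others, with medians of 0.19 and 0.02. Chromosome ends such as 16p13.3, 22q13.33 and 9q34.3 are gene-dense and GC-rich. Without Control replicate 2 the number of terminal bands that rose was 10, without DoxEtop replicate 1 it was 2, and without Control replicate 1 it was 24. In those fits 32, 34 and 36 of the 39 lay above 0.

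The band with the smallest p among these was 22q13.33, at the end of the long arm of chromosome 22. Its level was 2660 and 2474 CPM in Control and 3291 and 3118 CPM in DoxEtop, a log2 fold change of 0.32 ± 0.05 (SE, adjusted p = 0.00191). Both DoxEtop libraries were above both Control libraries by more than the gap within either group. At 16q24.3 the Control libraries stood at 2977 and 2622 CPM and the DoxEtop libraries at 3553 and 3450 CPM, and the log2 fold change was 0.32 ± 0.05 (adjusted p = 0.00191). The other end of that chromosome, 16p13.3, which carries the alpha-globin genes among many others, went from 11733 and 10357 CPM to 14102 and 13198 CPM, 0.31 ± 0.05 on the log2 scale (adjusted p = 0.00196). The band 8q24.3 changed most among the terminal bands named here. It held 2574 and 2100 CPM in Control and 3220 and 2910 CPM in DoxEtop, a log2 fold change of 0.39 ± 0.07 (adjusted p = 0.00277), which was 0.25 without Control replicate 2. The other terminal bands named by the rule, 9q34.3, 20q13.33, 1p36.33, 21q22.3 and 17q25.3, rose by 0.20 to 0.31 on the log2 scale. In all terminal bands named by the rule that rose, both Dox libraries also lay above both Control libraries. The higher Dox library lay above the lower DoxEtop library at 22q13.33 (3178 against 3118 CPM), 8q24.3 and 1p36.33. In the rest both Dox libraries lay below both DoxEtop libraries. The endogenous AIRE gene lies in 21q22.3, where the Control libraries held 5980 and 5891 CPM and the DoxEtop libraries 6899 and 6847 CPM, with little spread in either group. Within these bands few single regions passed the test. At 22q13.33, for example, 2 of 109 merged regions rose and 0 fell, yet only 33 of the 109 lay below 0.

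**Figure D1:**
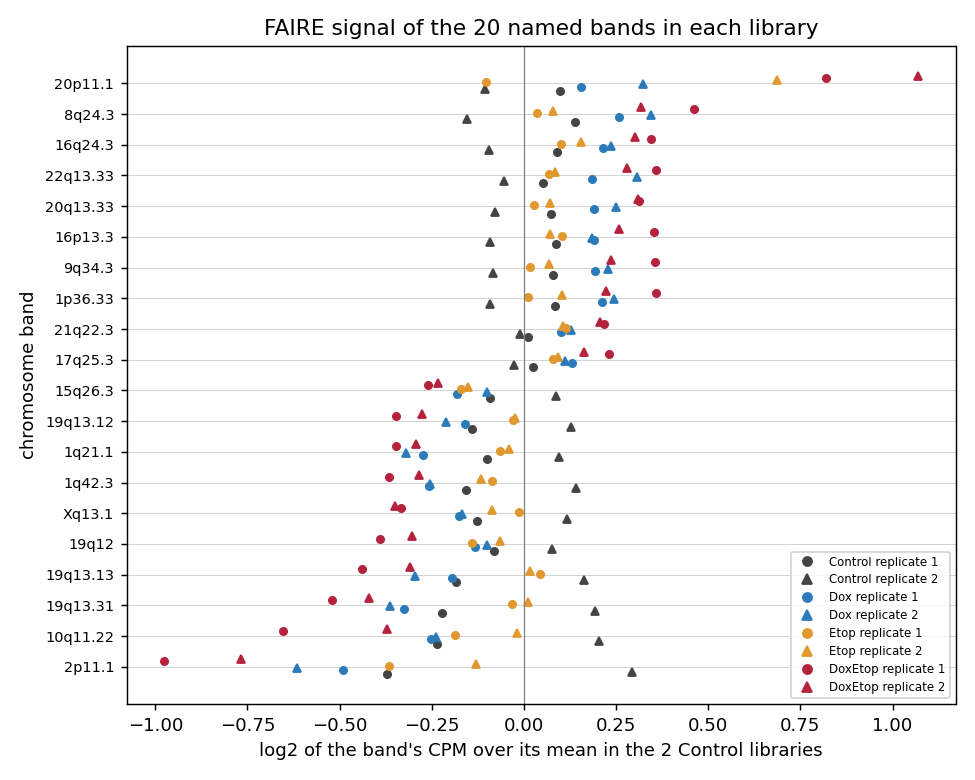
The level of the 20 named chromosome bands in each of the 8 libraries, as log2 of the band's CPM over its mean in the 2 Control libraries (black). Both DoxEtop libraries (red) lie to the right of both Control libraries in the upper 10 bands and to their left in the lower 10, with the Dox libraries (blue) mostly between.

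The rise toward chromosome ends was also seen when windows were grouped by distance from the nearer end of the chromosome. The chromosome lengths were recalled from memory like the band limits. The windows near an end are largely those of the terminal bands, so this is not a separate check. Windows between 1 and 2 Mb from an end held 4.14% and 3.79% of the counts in Control and 4.81% and 4.57% in DoxEtop, a log2 ratio of 0.24. The ratio was 0.17 in the last 1 Mb, 0.12 between 2 and 5 Mb and 0.03 between 5 and 10 Mb. From 10 to 40 Mb it was −0.05, and beyond 40 Mb −0.01. In each class the 2 DoxEtop libraries lay outside the range of the 2 Control libraries. The Dox libraries also stood above both Control libraries near the ends, at 4.47% and 4.53% between 1 and 2 Mb. In the last 1 Mb they held 3.591% and 3.695%, and overlapped the DoxEtop libraries at 3.747% and 3.622%. Without chromosome 19 the ratio of DoxEtop over Control was 0.25 between 1 and 2 Mb and 0.01 between 10 and 20 Mb. From 20 to 40 Mb these groups overlapped. These shares are descriptions over windows that share libraries and were not tested. Segments of 1 Mb were classed by the distance of their centre from the end, so 1 chromosome end can give more than 1 segment. Of 40 segments centred within 1 Mb of an end or past it, 13 rose and 1 fell. Among the 700 segments beyond 40 Mb, 5 rose and 24 fell (over all 1762 segments tested, 3.12% rose and 3.8% fell).

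**Figure D2:**
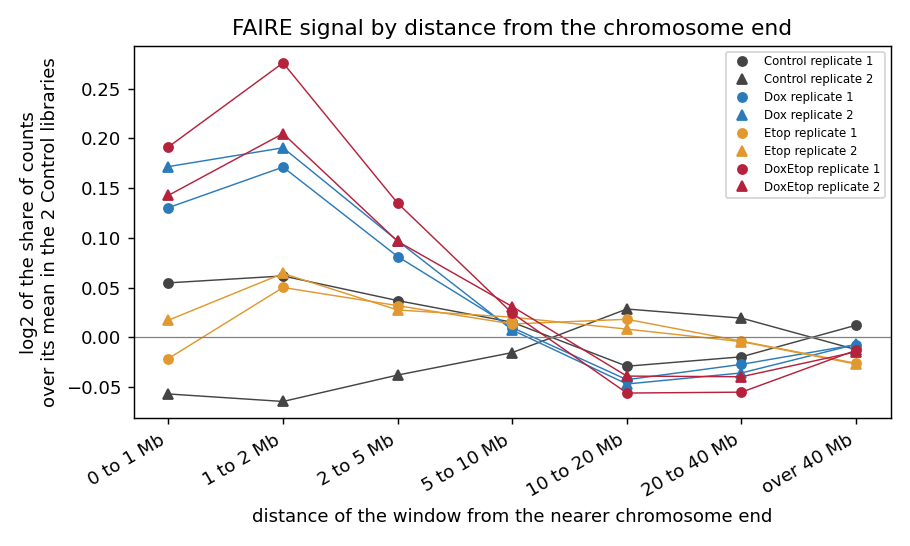
The share of each library's counts by distance of the window from the nearer chromosome end, as log2 over the mean share of the 2 Control libraries. The DoxEtop libraries peak between 1 and 2 Mb, at 0.28 and 0.20, and the Control libraries stand at 0.06 and −0.06 there.

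Chromosome 19 held opposite changes on its arms. In this gene-dense chromosome, which carries large clusters of KRAB zinc-finger genes, the end band 19p13.3 rose (log2 fold change 0.20 ± 0.04, adjusted p = 0.00916), as did 19p13.13 (0.39 ± 0.12, adjusted p = 0.0457). On the long arm, the 7 adjoining bands from 19q11 to 19q13.31 all fell, by 0.22 to 0.52 on the log2 scale. The 5 bands from 19q13.32 to the end of the arm were not called and lay between −0.10 and −0.04. The remaining tested short-arm bands, 19p13.2, 19p13.12 and 19p13.11, were not called and lay between 0.03 and 0.09, and 19p12 had too few windows (18) to be tested. The difference between adjoining bands was not tested. The band 19q13.31 held 6930 and 9225 CPM in Control and 5633 and 6034 CPM in DoxEtop, a fall of 27.8% (log2 fold change −0.47 ± 0.08, adjusted p = 0.00232). The adjoining 19q13.32 held 11041 and 11574 CPM in Control and 10797 and 11155 CPM in DoxEtop, and these groups overlapped.

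The band with the smallest p of all was 19q12, with 6447 and 7184 CPM in Control and 5198 and 5525 CPM in DoxEtop (log2 fold change −0.35 ± 0.05, adjusted p = 0.00179). The band 19q13.12 fell from 23571 and 28367 CPM to 20419 and 21442 CPM (−0.31 ± 0.06, adjusted p = 0.00394). Control replicate 2 was the highest of the 8 libraries in both bands, and Control replicate 1 lay nearer to the DoxEtop libraries. Without Control replicate 2, 3 of the 7 long-arm bands passed the test, and without DoxEtop replicate 1, 2 did. The sizes also moved without Control replicate 2, to −0.25 at 19q13.31, −0.17 at 19q13.12 and −0.19 at 19q13.13, the last from −0.37 and no longer past the threshold (adjusted p = 0.147). It also missed the threshold with windows under the median summed count left out (adjusted p = 0.0642). All 7 were below 0 in every one of the alternative fits made at the band level. Their groups did not overlap, so a fit without 1 library could not reverse their direction. Over the whole chromosome, 1004 windows fell and 42 rose, so that chromosome 19 held 15% of the windows and 28.3% of those that fell (1.39% of all windows fell and 0.162% rose). Its share of the counts was 15.8% and 17.5% in Control and 14.9% and 15.3% in DoxEtop.

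**Figure D3:**
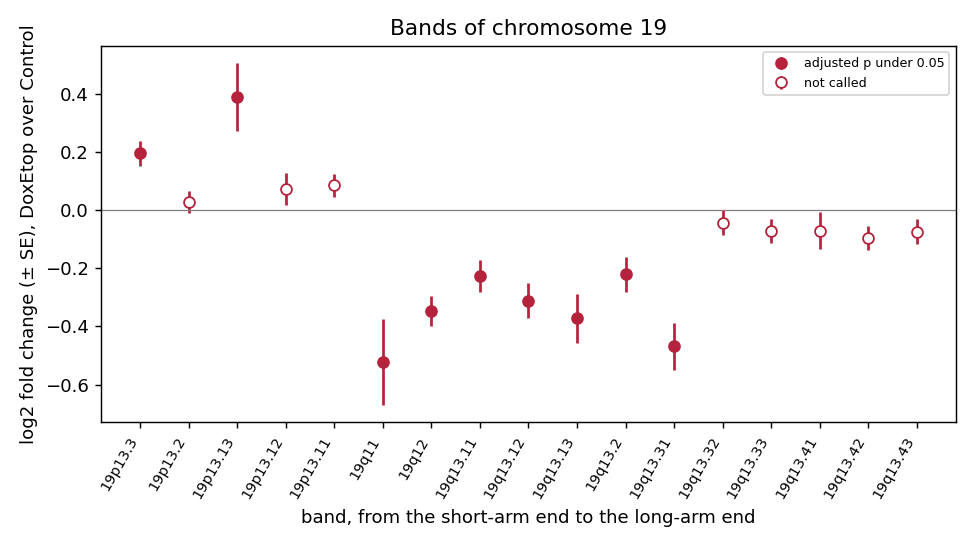
The log2 fold change of DoxEtop over Control with its SE for each tested band of chromosome 19, in order from the short-arm end to the long-arm end. Filled points have an adjusted p under 0.05, and the 7 filled points below 0 are the bands from 19q11 to 19q13.31.

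Outside chromosome 19, the bands that fell included 7 on the long arm of chromosome 1 (1q21.1, 1q21.3, 1q41, 1q42.12, 1q42.13, 1q42.2 and 1q42.3) and 4 on the X chromosome (Xq13.1, Xq13.2, Xq22.3 and Xp11.22). Chromosome 1 held 12.4% of all windows and the X chromosome 2.69%. Over all bands tested 4.38% fell, and the number tested on each chromosome is not given here. At 1q42.3 the Control libraries held 3874 and 4764 CPM and the DoxEtop libraries 3353 and 3545 CPM, a log2 fold change of −0.32 ± 0.07 (adjusted p = 0.0053). At Xq13.1 the DoxEtop libraries were close to each other, at 2079 and 2057 CPM, and below the Control libraries at 2402 and 2841 CPM (−0.34 ± 0.06, adjusted p = 0.00277). The terminal band 15q26.3 was the 1 of the 39 that fell, and 2 others also lay below 0. It held 4480 and 5073 CPM in Control and 3985 and 4060 CPM in DoxEtop, and its log2 fold change was −0.25 ± 0.05 (adjusted p = 0.0059). With windows under the median summed count left out it was −0.11 and missed the threshold (adjusted p = 0.195). The log2 fold change without Control replicate 2 was −0.17 at 1q42.3, −0.22 at Xq13.1 and −0.16 at 15q26.3. Leaving out windows under the median summed count gave −0.15 at 1q42.3 (adjusted p = 0.105) and −0.20 at 19q12, which kept its call. By DESeq2, 1q42.3, 10q11.22, 19q13.12 and 19q13.13 missed the threshold, with adjusted p from 0.0606 to 0.0878. Parts of the major histocompatibility complex region also fell, 6p21.32 by 0.18 and 6p22.1 by 0.23 on the log2 scale (adjusted p = 0.0258 and 0.0184).

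The largest fall of a band was at 7p21.2, which had only 23 windows (log2 fold change −0.99 ± 0.28, adjusted p = 0.0305). Of its 3 merged regions 0 passed the test. Several others of the largest band changes lay in sequence that is hard to assign to one place. The band 10q11.22, rich in segmental duplications, held 2733 and 3703 CPM in Control and 2047 and 2485 CPM in DoxEtop (−0.50 ± 0.10, adjusted p = 0.00492). Of its 116 merged regions 102 lay below 0 and 9 fell. The pericentromeric band 2p11.1, with 64 windows, held 232 and 367 CPM in Control and 152 and 176 CPM in DoxEtop, a fall of 45.0% (−0.86 ± 0.18, adjusted p = 0.00563). The largest rise was at the pericentromeric 20p11.1, from 871 and 755 CPM to 1435 and 1705 CPM (0.95 ± 0.16, adjusted p = 0.00191). Of its 49 windows 33 lay in 1 merged region, the only 1 of its 3 that rose. How reads with several possible positions were counted is not given in the sources used here, so the values at 10q11.22, 2p11.1 and 20p11.1 are uncertain. Leaving out Control replicate 2 gave a log2 fold change of −0.27 at 10q11.22, −0.50 at 2p11.1 and 0.85 at 20p11.1. The call at 2p11.1 was then lost (adjusted p = 0.0977).

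On the scale of 1 Mb, 67 segments fell and 55 rose of 1762 with at least 20 windows, with medians of −0.36 and 0.32. After TMM scaling the split was 83 that fell and 42 that rose. Only 31 segments passed the test without DoxEtop replicate 1, 40 without Control replicate 2 and 18 when the fit held only the 4 libraries compared, whereas 239 passed without Control replicate 1. Chromosome 19 held 16 of the segments that fell and chromosome 1 held 14, while chromosome 16 held the most that rose, 8. These chromosomes held 15%, 12.4% and 4.42% of all windows. The number of segments tested on each is not given here. The 10 named segments in each direction kept their call in 20 of 20 cases without Control replicate 2, in 18 without DoxEtop replicate 1 and in 13 with only the 4 libraries compared.

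Among these, chr10:47000001-48000000 fell most, from 1319 and 2042 CPM to 866 and 1122 CPM (−0.76 ± 0.11, adjusted p = 1.00e-05), and 71 of its 73 merged regions lay below 0. The segment chr19:44000001-45000000 held 5975 and 8121 CPM in Control and 4795 and 5155 CPM in DoxEtop (−0.50 ± 0.08, adjusted p = 3.80e-05). Of its 196 merged regions, 19 fell and 0 rose. These segments kept their calls without Control replicate 2 at smaller sizes, −0.41 on chromosome 10 and −0.26 on chromosome 19. Both missed the threshold by DESeq2 and with only the 4 libraries compared, with adjusted p from 0.0517 to 0.0638. On the higher side, the end of chromosome 8, chr8:145000001-146000000, held 851 and 683 CPM in Control and 1188 and 1129 CPM in DoxEtop (0.59 ± 0.08, adjusted p = 1.00e-05). In that segment 0 of 43 merged regions passed the test, yet only 6 of the 43 lay below 0, so the rise of the sum was spread over many regions. The first 2 Mb of chromosome 16 rose in both segments, by 0.36 in the first and 0.39 in the second. Calls were more frequent where windows were dense. Among the 121 segments with 400 windows or more, 20.7% rose and 12.4% fell, and among the 577 with 20 to 49 windows 0.867% rose and 1.56% fell. The median log2 fold change was 0.03 in both classes. Values ranged from −0.50 to 0.39 in the dense class and from −0.78 to 1.01 in the sparse one. More counts make a small change easier to call, and this part was not tested.

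Joining windows separated by 100 bp or less gave 35741 merged regions, with a median width of 350 bp. Of these, 708 fell (1.98%) and 147 rose (0.411%), so that 82.8% of the called regions were lower in DoxEtop. The median log2 fold change was −2.05 in the regions that fell, a 4.15-fold difference, and 1.08 in those that rose, a 2.12-fold difference, against −0.04 over all regions. The groups did not overlap in 706 of the 708 and in all 147, compared with 27.2% and 22.4% of all regions. Where they did not overlap, leaving out 1 library could not reverse the direction. The region calls rested on 2 libraries in particular. Without Control replicate 2 the test called 2 regions and without DoxEtop replicate 1 also 2, although 707 of the 708 and all 147 kept their direction in the first of these fits and all 855 in the second. The median over the 708 was then −1.59 and −1.78. By limma-voom 410 regions passed, 260 lower and 150 higher, and by DESeq2 415, 301 lower and 114 higher, so the share that was lower was 63.4% and 72.5%. After TMM scaling it was 74.2%.

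The named regions are the 10 lowest and 10 highest of the called regions above the median level whose groups did not overlap. No hg19 annotation was used here, so none is placed relative to a gene. The deepest fall among them was at chr1:225960051-225960350 in 1q42.12. This region held 23.3 and 52.1 CPM in Control (72 and 135 counts) and 3.55 and 0 CPM in DoxEtop (7 and 0 counts), and its log2 fold change was −4.33 ± 0.66 (adjusted p = 0.000329). The Etop libraries, at 38.4 and 31.2 CPM, were within the Control range, and the Dox libraries, at 3.11 and 7.76 CPM, were not. A region in 21q22.3, chr21:45029501-45029850, held 24.5 and 42.04 CPM in Control and 2.03 and 2.13 CPM in DoxEtop, with 1.56 and 4.18 CPM in Dox (−3.96 ± 0.60, adjusted p = 0.000329). It fell although its band as a whole rose. The region chr1:226735451-226735750, also in 1q42.12, held 26 and 151 counts in Control, 0 and 12 in DoxEtop and 0 in both Dox libraries (−3.37 ± 0.74, adjusted p = 0.00993). It missed the threshold by limma-voom (adjusted p = 0.318) and by DESeq2 (adjusted p = 0.530). The regions chr1:225960051-225960350 and chr21:45029501-45029850 missed it by limma-voom (adjusted p = 0.0911 and 0.131) and kept their calls by DESeq2. By limma-voom, 2 of the 10 named regions that fell and 9 of the 10 that rose kept their call.

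The other 7 named regions that fell lay at chr15:67155151-67155550, chr22:39886151-39886500, chr10:111643951-111644400, chr8:67579401-67579850, chr1:234659351-234659700, chr10:47003901-47004400 and chr10:46983701-46984050, with log2 fold changes from −3.28 to −2.88. All windows passed the test in each named region that fell except chr10:47003901-47004400, where 5 of 8 did. The rule required the highest DoxEtop library of each to lie below the lowest Control library. In all 10 it also lay below both Etop libraries. In 7 of the 10, all but those on chromosomes 15, 21 and 22, the gap in CPM between the Control libraries was wider than the gap between the lower of them and the higher DoxEtop library. When Control replicate 2 was left out, the log2 fold change was −1.40 at chr1:226735451-226735750, −1.14 at chr1:234659351-234659700 and −1.65 at chr10:46983701-46984050. None of the 20 named regions kept its call without Control replicate 2, 1 did without DoxEtop replicate 1, and 11 did without Control replicate 1.

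The region with the most falling windows was chr1:154946151-154947550 in 1q21.3, where 11 of 20 windows fell. The region held 105 and 162 CPM in Control, 23.9 and 47.5 CPM in DoxEtop, 51.4 and 49.6 CPM in Dox and 94.4 and 108 CPM in Etop (−1.90 ± 0.26, adjusted p = 7.88e-05). Its falling windows formed 4 stretches. The deepest window, chr1:154946901-154947050, had a log2 fold change of −3.12, and those between 154947001 and 154947300 lay between −1.21 and −0.92 and were not called. Regions with 9 falling windows followed, 1 on chromosome 17 and 3 on chromosome 19. In 19q13.2, chr19:41256151-41257350 held 224 and 288 CPM in Control and 78.7 and 171 CPM in DoxEtop (−1.04 ± 0.20, adjusted p = 0.00451). In 19q13.31, chr19:44487951-44489550 held 116 and 222 CPM in Control and 83.3 and 87.5 CPM in DoxEtop (−0.98 ± 0.22, adjusted p = 0.0126). The log2 fold change was −0.77 ± 0.22 at chr17:1619351-1620700 (adjusted p = 0.0436). The longer chr19:36246701-36250400 in 19q13.12 missed the threshold as a whole (−0.49 ± 0.15, adjusted p = 0.0583). These 5 regions were chosen after their values were seen.

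Regions that rose changed less. The largest rise above the median level was at chr12:62706351-62706650 in 12q14.1, from 2.58 and 7.71 CPM (8 and 20 counts) in Control to 29.5 and 30.9 CPM (58 and 58 counts) in DoxEtop (2.57 ± 0.53, adjusted p = 0.00584). The Dox libraries held 21.3 and 17.3 CPM and the Etop libraries 8.85 and 10.4 CPM, so the Dox and DoxEtop libraries were the 4 highest. At chr6:108731801-108732100 in 6q21 the Control libraries held 8.39 and 7.71 CPM and the DoxEtop libraries 30.5 and 40.5 CPM (2.13 ± 0.54, adjusted p = 0.0249). The Etop libraries there disagreed, at 4.43 and 30.1 CPM. At chr10:20318451-20318750 the DoxEtop libraries, at 25.9 and 32 CPM, overlapped the Dox libraries, at 25.95 and 31.05 CPM, and the Etop libraries again disagreed, at 8.12 and 27.75 CPM. The Control libraries held 7.43 and 6.17 CPM (2.08 ± 0.50, adjusted p = 0.0196). The remaining named regions that rose, chr1:236828601-236828950, chr12:90796251-90796550, chr17:60885451-60885800, chr6:147524701-147525050, chr3:52443901-52444250, chr2:213402551-213402900 and chr19:489451-489750, had log2 fold changes from 1.74 to 2.04. That of chr6:147524701-147525050 was 1.86, and 1.03 without DoxEtop replicate 2. In chr19:489451-489750, inside the rising band 19p13.3, 0 of 4 windows passed the test on their own.

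**Figure D4:**
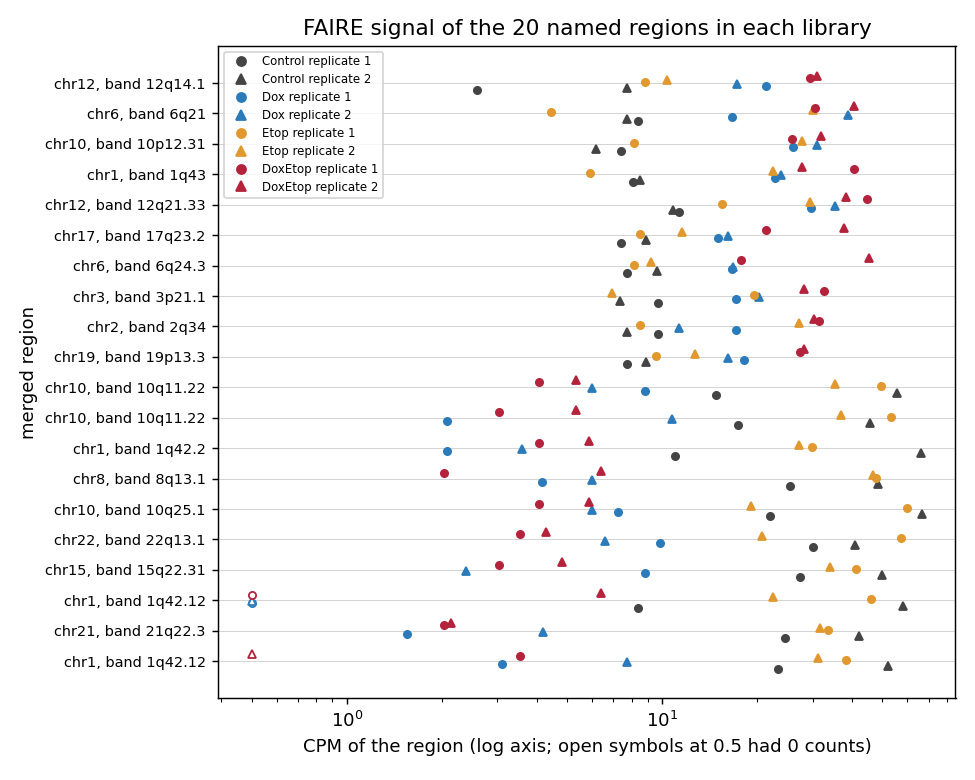
The level of each of the 20 named regions in CPM, on a log axis, in all 8 libraries, with libraries at 0 counts drawn as open symbols at 0.5. The upper 10 regions rose and the lower 10 fell, and in the lower 10 the Dox (blue) and DoxEtop (red) libraries lie to the left of the Control (black) and Etop (orange) libraries.

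The most extended rise was in the pericentromeric 20p11.1, at chr20:26188701-26190650, where 23 of 33 windows rose. This region held 801 and 700 CPM in Control, 849 and 953 CPM in Dox, 695 and 1232 CPM in Etop and 1387 and 1644 CPM in DoxEtop. The DoxEtop libraries were the highest of the 8, and Etop replicate 2 was the next. Its log2 fold change was 1.01 ± 0.13 (adjusted p = 3.26e-05), and it was also the only region of 35741 called between DoxEtop and Dox (0.0028% of regions), with a log2 fold change of 0.75 (adjusted p = 0.0289). The next in number of rising windows, among regions that passed the test as a whole, was chr10:124907151-124907800 in 10q26.13, with 5 of 11. It held 19.7 and 21.2 CPM in Control and 62.5 and 49.6 CPM in DoxEtop (1.45 ± 0.32, adjusted p = 0.00946). The Dox libraries held 39.4 and 54.3 CPM and the Etop libraries 44.3 and 39.3 CPM, above both Control libraries, and the higher Dox library lay above the lower DoxEtop library. Both regions were singled out after their values were seen.

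Accessibility also shifted with the width of the region. Regions up to 300 bp wide held 13.9% and 16.2% of the counts in Control and 12.5% and 13.2% in DoxEtop, a log2 ratio of −0.23. Regions of 1000 to 2000 bp held 24.4% and 23.2% in Control and 26.4% and 25.7% in DoxEtop, a log2 ratio of 0.13. Within both classes the groups did not overlap. Falling regions made up 2.02% of those up to 300 bp and 1.51% of those of 1000 to 2000 bp, and rising regions 0.145% and 2.15%. The order by width was not even. The 246 regions over 2000 bp had the highest share of falling regions, 2.85%, with 1.63% rising and a log2 ratio of 0.06, and regions of 300 to 500 bp fell in 2.21% of cases. The level of a region moved the same way. With regions split by level into 4 classes of equal size, 0.0895% rose in the lowest class and 1.22% in the highest, while 1.66% and 1.67% fell. Within the 4358 regions of at least 15 windows, the median log2 fold change was 0.26 in windows 7 or more from an edge and −0.03 in the outermost 3 on each side. Width, level and the number of counts are tied to each other, and a higher count makes a small change easier to call. Their separate parts were not tested. The minimum summed count, to which the Control pair adds most, also sets which windows form a narrow region or an edge. Its part in these values was not tested.

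**Figure D5:**
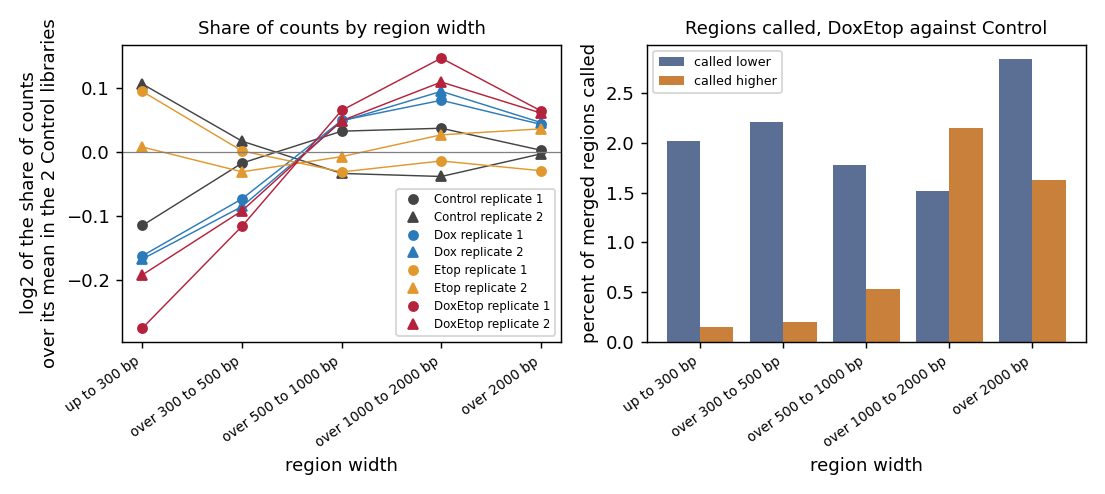
Left, the share of each library's counts by region width, as log2 over the mean share of the 2 Control libraries. Right, the percentage of regions in each width class that fell or rose between Control and DoxEtop, with rising regions at 0.145% of the narrowest class and 2.15% of those of 1000 to 2000 bp.

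Falling regions had neighbours that also lay low. Of 231 neighbours within 500 bp of a falling region, 66.7% lay below 0, with a median log2 fold change of −0.35, and 6.06% fell, against 1.98% of all regions. Between 2000 and 10000 bp 69.5% lay below 0 (median −0.29). Beyond 50000 bp 49.8% did, with a median of 0.00, and over all regions the share was 52.8%. Of 69 neighbours within 500 bp of a rising region, 52.2% lay above 0 (median 0.02). With 0.411% of all regions rising, 69 neighbours are too few for the number that rose among them, 0, to be read. The difference between the neighbours of falling and of rising regions was not tested. Fragments that span a gap can be counted on both sides of it, and this part of the shortest distance class was not tested.

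The bands that fell moved through many regions rather than a few. Of their 5421 merged regions, 74.1% lay below 0, and the 5179 that were not called had a median log2 fold change of −0.38. In the bands that rose, 35.6% of 4276 regions lay below 0 and the median of the uncalled was 0.21. Since the band sums contain these regions, the shares describe how the band changes were composed. Of all 708 falling regions 235 lay in a falling band and 25 in a rising one, and of 147 rising regions 39 lay in a rising band and 7 in a falling one. Most called regions lay in bands without a call, 446 that fell and 97 that rose. Falling regions made up 4.34% of regions in falling bands, 1.72% in bands without a call and 0.585% in rising bands (1.98% of all regions). For rising regions these shares were 0.129%, 0.375% and 0.912% (0.411% of all regions).

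The single treatments give the setting of these differences, and all were measured against the same 2 Control libraries, so their values are placed side by side without a test of likeness. At the 708 falling regions the median log2 fold change over Control was −2.05 in DoxEtop, −1.31 in Dox and −0.07 in Etop. At the 147 rising regions it was 1.08, 0.70 and 0.40. At the 31 falling bands it was −0.24, −0.18 and −0.05, and at the 28 rising bands 0.29, 0.20 and 0.07. Against Control, 320 regions fell in Dox (0.895% of regions) and 13 rose (0.0364%), and 18 bands passed the test (2.55%). Etoposide alone gave 0 windows, regions, segments or bands by edgeR, with 14210 windows (5.55%) at an unadjusted p under 0.05.

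Direct comparison of DoxEtop with Dox called 0 windows and 0 bands, and 1 region and 1 segment of 1 Mb (0.0568% of segments), both at 20p11.1. That region is the only 1 in the segment, so both calls rest on the same counts. Against Etop, DoxEtop was lower at 1135 regions (3.18%) and higher at 283 (0.792%), and 69 bands passed the test (9.76%). The interaction, which asks whether both treatments together differed from the sum of the single ones on the log2 scale, called 0 of 256141 windows by edgeR, with 10557 (4.12%) at an unadjusted p under 0.05. It called 0 by limma-voom and 0 by DESeq2, with 8538 and 6020 windows at an unadjusted p under 0.05. Without Control replicate 2 the edgeR test called 4 windows. The median interaction was −0.44 at the falling regions and −0.02 at the rising ones, against −0.03 over all regions. The rule that chose those regions used the DoxEtop and Control libraries, which also enter the interaction.

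Because the deposited table keeps only windows with a minimum summed count and the Control pair has a larger total than the DoxEtop pair, a window high in Control alone is more easily kept than one high in DoxEtop alone. Windows were kept with a summed count of at least 129 as counted and with the Control and DoxEtop levels exchanged, which left 207901. The Dox and Etop counts were not exchanged. At the falling regions the median log2 fold change over Control was −0.07 in Etop, so falling windows can also pass through the Etop counts. The check therefore cannot show the part of the minimum count in the excess of falls. This check was chosen after the data were seen. Its limit, the most frequent summed count, lies above the minimum of 111, so weak windows were also removed whatever their balance. Among the windows kept, 2781 fell and 356 rose, of 3551 and 416 in the whole table. Fitted again on those windows, 23 bands fell and 28 rose.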

How the data were processed

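Per the labels' protocols, each group had 2 independent biological replicates. The submitters' processing notes name Trim Galore, Bowtie2, Bowtie and hg19 but give no versions. How windows were chosen and fragments counted is not given in the sources used here, and input libraries were not analysed here. The authors deposited raw counts per window for 8 libraries. Counts were summed over non-overlapping windows of each merged region, 1 Mb segment and band (at least 20 windows). Libraries were scaled without TMM, windows to the column totals and the sums to each library's total over the features summed at that level. The test at every level was that of edgeR 4.0.16 (R 4.3.3; two-sided quasi-likelihood F test, 1 mean per group over 8 libraries, 4 residual degrees of freedom, Benjamini-Hochberg adjustment over all features of a level at 0.05). The common biological coefficient of variation was 26.4% for windows and 5.86% for bands. No window was removed. The p-values measure the spread between these replicates only. A fragment can be counted in several overlapping windows, so windows are not independent.

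Band limits and chromosome lengths of hg19 come from no source file: they were recalled from memory, limits to the nearest 100 kb, and not checked (845 bands, with 2 groups of bands on chromosome 9 joined). A band is therefore an approximate interval and its name may be wrong near a limit. Distances to a chromosome end rest on the recalled lengths. The limits of windows, merged regions and 1 Mb segments rest on the deposited coordinates alone. The regions named are the 10 lowest and 10 highest log2 fold changes among regions with an adjusted p under 0.05, a mean level above the median region and groups without overlap, and the bands and segments named are the 10 with the smallest p in each direction. The members and rules were chosen with earlier results of these data known. The count scripts were tested on simulated data. Alternatives were TMM scaling, loess offsets, limma-voom 3.58.1, DESeq2 1.42.0, Simes' p, other gaps and segment lengths, a count filter, a replicate block, only the 4 libraries compared, and leaving out each library.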

Additional observations from a re-analysis of the deposited data

How the results depend on the processing

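Directions were kept and numbers of calls were not. The groups did not overlap in any named feature, so leaving out 1 library could not reverse its sign. None of the 20 named regions, 20 bands and 20 segments changed sign under any alternative fitted, while 80 of 316 region values, 23 of 280 band values and 13 of 280 segment values missed the threshold. Leaving out each library in turn gave 4 to 6717 windows, 2 to 1235 regions, 31 to 239 segments, 6 to 140 bands, 0 to 20 named regions and 0 to 4 interaction windows. Windows numbered 48 by limma-voom (24 lower and 24 higher) and 748 by DESeq2 (706 and 42), against 3967 (3551 and 416). Regions numbered 410 and 415 by these tools, against 855. Of the 20 named regions 11 passed by limma-voom, 2 that fell and 9 that rose, and 17 by DESeq2, 9 and 8. Segments numbered 18 with only the 4 libraries compared and 59 at a length of 5 Mb, against 122. TMM scaling gave 4197 windows, 834 regions, 125 segments and 61 bands, and moved the median window from 0.03 to 0.01 on the log2 scale. Terminal bands that rose numbered 16 after TMM scaling and by DESeq2, and 14 of the 36 tested when windows under the median summed count were left out. With the replicate number as a block, 3159 windows, 796 regions, 143 segments, 57 bands and 0 interaction windows were called and all 60 named features kept their call. The labels do not say that a number marks a shared culture day, and deviations of same-numbered Control and DoxEtop libraries correlated at 0.14 over regions and 0.18 over bands. The causes of the lost calls were not tested. With 2 libraries per group, fits that leave 1 in a group assume that it varies like the others. Changes in narrow or weak regions are limited by counts.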
